A study of Homo sapiens with 8 samples.

Results

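The insulin and insulin-like growth factor (IGF) axis was followed through 10 genes chosen by name: the ligand IGF2, the receptors INSR, IGF1R and IGF2R, the adaptors IRS1 and IRS2, and the binding proteins IGFBP1, IGFBP2, IGFBP3 and IGFBP4. All 10 were found by identifier among the 38032 genes listed in each library, and all 10 passed the filter on low counts that left 13943 genes for testing. The cells were HepG2, a line derived from a human liver tumour and labelled as hepatocellular carcinoma of wild-type genotype, grown in minimal essential medium with foetal bovine serum. The 4 2D-primed libraries came from cells kept for 8 days on flat culture plastic, and the 4 3D-primed libraries from cells kept for 8 days on Alvetex Strata, a porous polystyrene scaffold. Cells of both groups were released with trypsin before polyadenylated RNA was taken. HepG2 is a single tumour line, both groups were seeded from the same pool of cells, and the 3D-primed cultures were seeded at a higher density per well, so that density and substrate cannot be told apart. The labels number the replicates without naming separate cultures, and p-values therefore measure the spread between these samples.

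Insulin and the IGFs bind receptor tyrosine kinases on the cell surface, INSR and IGF1R, and the occupied receptors phosphorylate IRS adaptor proteins. Phosphorylated IRS proteins recruit phosphoinositide 3-kinase, which activates AKT, and AKT in turn holds FOXO transcription factors out of the nucleus. IGF2R carries no kinase and removes IGF2 from the cell surface, and the secreted IGFBPs hold IGFs in the circulation and around cells. The liver is the main source of circulating IGFs and of IGFBP1, whose gene insulin represses in hepatocytes, and IGF2 is an imprinted fetal growth factor.

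The libraries held 21599630 to 27844077 estimated counts. Values are given as CPM, the counts of a gene scaled to a common library size with TMM, as mean ± SD of 4 libraries, and log2 fold changes are 3D-primed over 2D-primed. Each was tested with edgeR's quasi-likelihood test, with p adjusted over all 13943 genes and a gene called at an adjusted p below 0.05. By that rule 63.9% of all genes tested were called, 32.4% upward in the 3D-primed group and 31.6% downward, and the median log2 fold change of all genes was 0.013. Mitochondrially encoded genes took 1.40 to 1.81% of the counts in the 2D-primed and 2.47 to 2.98% in the 3D-primed libraries, and the part of this shift in the values below was not tested. All 8 hepatocyte markers of the check were detected, with a summed level of 48831 to 53032 CPM in the 2D-primed and 76675 to 87910 CPM in the 3D-primed group. ALB made up the largest part of that sum. Of the 8 markers, 7 were called higher in the 3D-primed group and SERPINA1 was called lower, by 0.14 on the log2 scale. The part of these 8 markers in the values below was not tested. Of the 13 markers of fibroblasts, endothelium and leukocytes, CD163 was at 0 and COL3A1, DCN, LUM, KDR and PTPRC had at most 2 counts in a library. The summed levels were 11.0 to 12.2 against 15.1 to 18.1 CPM for fibroblast, 5.58 to 7.72 against 4.16 to 5.70 CPM for endothelial and 2193 to 2284 against 2418 to 3025 CPM for leukocyte markers, the last mostly LYZ. The markers of a list moved in unlike directions, since COL1A1 went from 0.675 to 1.21 CPM down to at most 0.113 CPM, CDH5 fell by 1.56 and CD68 by 1.08 on the log2 scale, and PDGFRB rose by 0.62, VWF by 0.62 and LYZ by 0.28, and the part of these markers in the values below was not tested. In bulk RNA, fewer cells that make a transcript and less transcript per cell cannot be told apart.

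Of the 10 genes, 7 were lower in the 3D-primed cells (IGF2, IGF1R, INSR, IRS1, IGFBP2, IGFBP3 and IGFBP4), IGFBP1 alone was higher, and IGF2R and IRS2 were not called. The 8 calls stand against 63.9% of all genes tested, and the 7 lower genes against the 31.6% called in that direction. The median log2 fold change of the 10 was -0.57, with a range from -1.92 (IGFBP3) to 0.55 (IGFBP1). For IGF2, IGF1R, INSR, IGFBP2, IGFBP3 and IGFBP4 every 3D-primed library lay below every 2D-primed library, against 29.5% of all genes tested in that direction and 59.8% in either. None of the 10 had every 3D-primed library on top, which 30.2% of all genes showed. IGFBP3 and IGFBP4 were the 2 genes called with a change of at least 2-fold, against 11.9% of all genes tested.

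**Figure D1:**
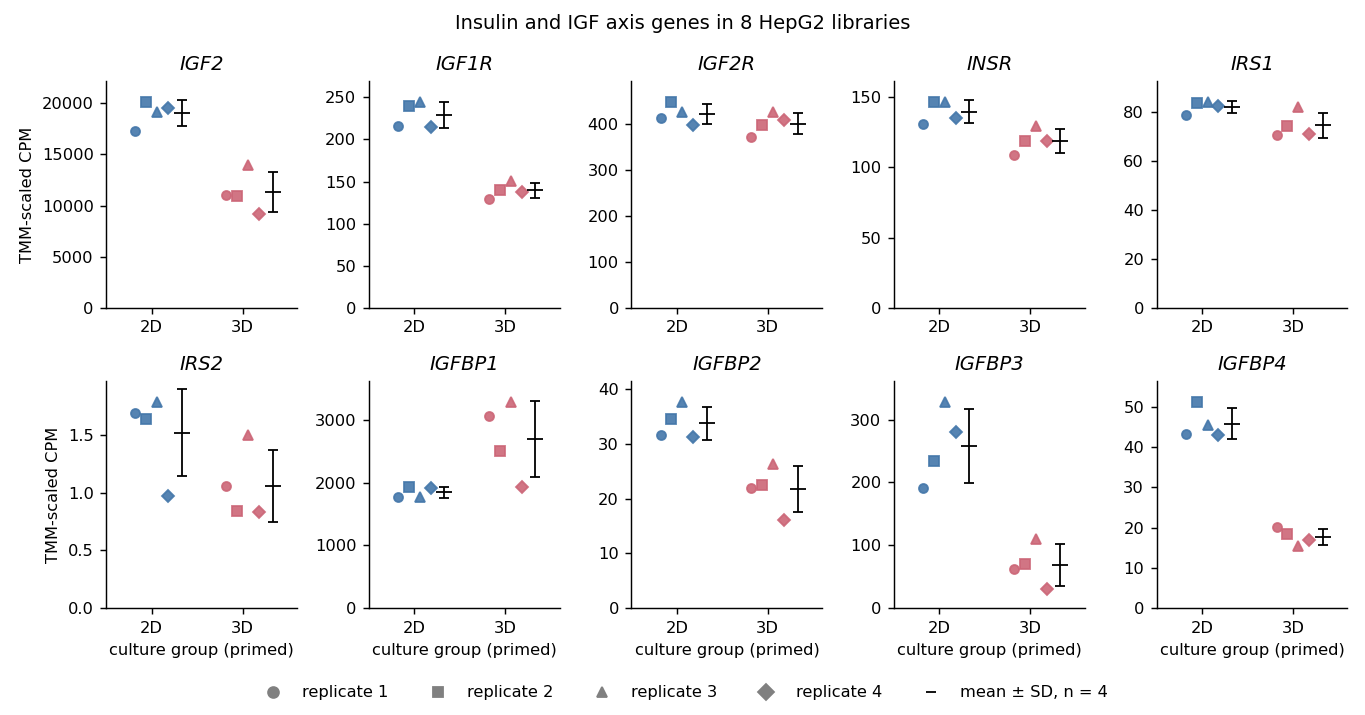
TMM-scaled CPM of each of the 10 genes (vertical axis, linear and from 0) in the 4 2D-primed and 4 3D-primed libraries (horizontal axis), with marker shapes for replicates 1 to 4 and black bars for mean ± SD. IGF2, IGF1R, INSR, IGFBP2, IGFBP3 and IGFBP4 are separated with 2D-primed on top, and IGFBP1 is higher in 3 of 4 3D-primed libraries.

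The sequences upstream of 4 of these genes are shown because the genes differed most plainly in their response or carried a motif that was looked for. IGFBP3 had the largest fall, IGF1R and IGF2R are receptors with unequal changes, and IRS2 held the only insulin response core found. Each run is the 250 bases before the transcription start in RefSeq on GRCh38.p14, read 5′ to 3′ on the strand of the gene. Capitals mark ACGTG, a motif of hypoxia response elements that is also part of the E-box CACGTG, or CAAAACA, on either strand. CAAAACA is the core of the insulin response sequence that FOXO factors bind.
IGFBP3, chr7:45921273-45921522, minus strand: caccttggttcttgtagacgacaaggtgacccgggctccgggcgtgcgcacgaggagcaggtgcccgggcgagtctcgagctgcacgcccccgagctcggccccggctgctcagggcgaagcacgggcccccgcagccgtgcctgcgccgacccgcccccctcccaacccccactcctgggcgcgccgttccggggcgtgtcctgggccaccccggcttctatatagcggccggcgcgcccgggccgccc
IGF1R, chr15:98648289-98648538, plus strand: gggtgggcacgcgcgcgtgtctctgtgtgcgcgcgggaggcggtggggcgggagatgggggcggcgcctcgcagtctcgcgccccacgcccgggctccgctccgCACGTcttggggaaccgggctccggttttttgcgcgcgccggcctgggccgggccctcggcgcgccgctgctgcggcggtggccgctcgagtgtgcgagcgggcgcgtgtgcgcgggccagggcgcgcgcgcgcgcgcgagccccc
IGF2R, chr6:159968832-159969081, plus strand: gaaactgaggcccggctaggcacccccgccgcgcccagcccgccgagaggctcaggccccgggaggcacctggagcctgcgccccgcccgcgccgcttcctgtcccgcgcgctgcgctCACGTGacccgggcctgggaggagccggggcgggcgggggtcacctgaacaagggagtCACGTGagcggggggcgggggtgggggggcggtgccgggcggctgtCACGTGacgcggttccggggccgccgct
IRS2, chr13:109786584-109786833, minus strand: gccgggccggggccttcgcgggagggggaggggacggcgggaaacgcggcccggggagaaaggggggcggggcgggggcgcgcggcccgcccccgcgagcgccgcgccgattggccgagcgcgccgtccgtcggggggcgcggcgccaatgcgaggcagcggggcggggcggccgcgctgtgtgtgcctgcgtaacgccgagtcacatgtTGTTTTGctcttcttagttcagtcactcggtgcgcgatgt

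RefSeq promoter entries were found for 8 of the 10 genes, with 10 entries in all, and IGF2 and IGFBP1 had none. The insulin response core CAAAACA, the forkhead site GTAAACA, the hypoxia response motif ACGTG and the ATF4 and C/EBP composite TGATGNAA were searched. Exact matches on both strands of the 250 bases were counted, and other forms of these motifs were not searched. CAAAACA was found in IRS2 alone, as its reverse complement TGTTTTG on the printed strand, starting 40 bases before the start, and 4.30% of all 35116 promoter entries of that length held it. ACGTG was found in IGF1R, 146 bases before the start, and at 3 places in IGF2R, each of them the palindrome CACGTG and therefore matched on both strands, against 18.5% of all entries. GTAAACA (2.98% of all entries) and TGATGNAA (3.14%) had no match in the entries of the 8 genes. The entries of IGFBP3, IGFBP4, INSR, IRS1 and IGFBP2 held none of the 4 motifs in this window. The IGFBP3 start used by RefSeq lies inside the gene as GENCODE draws it (chr7:45912245-45921874, minus strand).

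IGF2 (ENSG00000167244, chr11:2129112-2158391, minus strand of GRCh38) took a large share of the counts of these cells and fell in the 3D-primed cells. It was measured at 17242, 20162, 19161 and 19587 CPM in 2D-primed replicates 1 to 4, and at 11044, 10954, 13939.8 and 9218 CPM in the 3D-primed replicates 1 to 4. All 3D-primed libraries lay below all 2D-primed libraries, with replicate 3 the nearest. The means were 19038 ± 1265 and 11289 ± 1957 CPM (n = 4 each), a log2 fold change of -0.75, with an SE of 0.106 (edgeR, with an adjusted p of 1.2e-04). Before scaling, the share of IGF2 was 1.88 ± 0.101% in the 2D-primed and 1.14 ± 0.189% in the 3D-primed libraries. By mean CPM, which is not corrected for length, it ranked 2 of the 13943 genes tested in the 2D-primed and 6 in the 3D-primed cells. The readthrough gene INS-IGF2, which shares sequence with IGF2, had at most 11 counts in a library, and adding those counts to IGF2 left the log2 fold change at -0.75.

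Other ligands were near or at 0. INS was listed at 0 in all 8 libraries, and IGF1, an IGF that adult hepatocytes secrete, had at most 4 counts in a library. IGF2 was therefore the only ligand gene of the axis with more than 11 counts in any library, and the insulin and IGFs of the serum in the medium were not measured.

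Among the receptors, IGF1R fell most, INSR fell by a smaller amount, and IGF2R showed no detectable change. IGF1R (ENSG00000140443, chr15:98648539-98964530, plus strand), the main signalling receptor for the IGFs, was at 216, 239.8, 245 and 215 CPM in the 2D-primed and at 129.8, 139.8, 151 and 138 CPM in the 3D-primed replicates 1 to 4. The groups were far apart, and neither had a library that stood off from the rest. Its means were 229 ± 15.6 and 139 ± 8.56 CPM, a log2 fold change of -0.72 (SE 0.0596, with an edgeR adjusted p of 3.0e-06).

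INSR (ENSG00000171105, chr19:7112255-7294414, minus strand), the insulin receptor, was at 131, 146, 147 and 135 CPM in the 2D-primed and at 109, 119, 129.7 and 119 CPM in the 3D-primed replicates 1 to 4. The highest 3D-primed library, replicate 3, lay just under the lowest 2D-primed library, replicate 1. The means of 139.8 ± 8.00 and 119 ± 8.39 CPM gave a log2 fold change of -0.23 (SE 0.0590, with an edgeR adjusted p of 0.0057). Counts were summed per gene, so the 2 splice forms of INSR, which differ in whether they bind IGF2 well, were not separated.

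IGF2R (ENSG00000197081, chr6:159969082-160113507, plus strand), which also sorts lysosomal enzymes bearing mannose 6-phosphate, was at 412, 448, 427 and 397 CPM in the 2D-primed and at 372, 397, 426 and 407 CPM in the 3D-primed replicates 1 to 4. The groups overlapped, and 1 of the 4 3D-primed libraries lay below all 2D-primed libraries. Its log2 fold change was -0.07 with a 95% interval from -0.19 to 0.05 (edgeR, with an adjusted p of 0.26), which leaves out a fall of the size measured for IGF1R.

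The balance of the receptors was compared within each library, where it does not depend on scaling. INSR over IGF1R was a ratio of 0.600 to 0.628 in the 2D-primed and 0.842 to 0.862 in the 3D-primed libraries, and IGF2R over IGF1R was 1.74 to 1.91 and 2.83 to 2.96. In these ratios the libraries of a group lay close together and the groups far apart. The log2 ratio rose by 0.48 for INSR over IGF1R and by 0.64 for IGF2R over IGF1R (exact two-sided permutation test, p = 0.029 for each, the smallest that 4 against 4 can give, and 0.036 adjusted over the 5 ratios tested). The ranges of the single genes already keep the groups apart in both ratios, so these p-values add no support beyond the single genes.

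**Figure D2:**
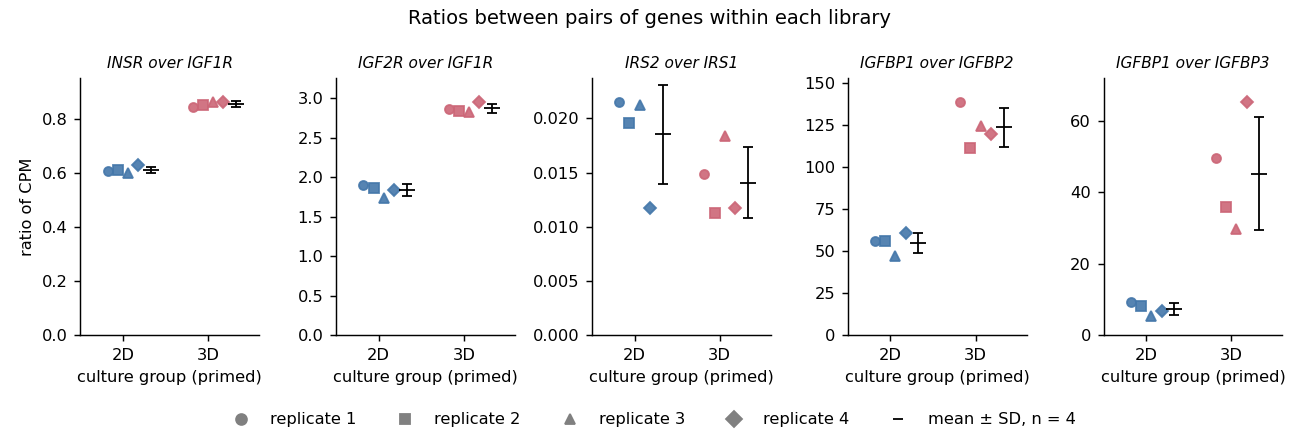
Ratio of the CPM of 2 genes within each library (vertical axes, linear and from 0) for 5 pairs, by culture group (horizontal axis), with marker shapes for replicates and black bars for mean ± SD. INSR over IGF1R rises from 0.611 ± 0.0119 to 0.853 ± 0.00986 and IGFBP1 over IGFBP3 from 7.46 ± 1.70 to 45.1 ± 15.8, while IRS2 over IRS1 overlaps between groups.

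The adaptors changed little or could not be resolved. IRS1 (ENSG00000169047, chr2:226731312-226799820, minus strand) was at 78.8, 83.8, 84.4 and 82.5 CPM in the 2D-primed and at 70.9, 74.5, 82.1 and 71.3 CPM in the 3D-primed replicates 1 to 4. In 3 of the 4 3D-primed libraries it was below all 2D-primed libraries, and replicate 3 lay among them. The log2 fold change of -0.14 (95% interval -0.26 to -0.03, edgeR adjusted p = 0.035) was small, and its adjusted p varied between 0.0016 and 0.15 under the alternatives. The call was lost when any of 2D-primed replicates 2, 3 and 4 or 3D-primed replicates 1, 2 and 4 was left out.

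IRS2 (ENSG00000185950, chr13:109752695-109786583, minus strand), the adaptor that carries much of the insulin signal in liver, had 19 to 44 counts in a library, the fewest of the 10 genes. It was at 1.70, 1.64, 1.79 and 0.971 CPM in the 2D-primed and at 1.06, 0.841, 1.51 and 0.834 CPM in the 3D-primed replicates 1 to 4. The groups overlapped, with 2D-primed replicate 4 below 2 of the 3D-primed libraries and 3D-primed replicate 3 well above the other 3D-primed libraries. The log2 fold change was -0.52 with a 95% interval from -1.11 to 0.08 (edgeR, with an adjusted p of 0.12), and it was called without 2D-primed replicate 4 (adjusted p = 0.039) or without 3D-primed replicate 3 (adjusted p = 0.033). IRS2 over IRS1 was 0.0118 to 0.0215 in the 2D-primed and 0.0113 to 0.0183 in the 3D-primed libraries (exact two-sided permutation test, p = 0.17). IRS4, another adaptor, and INSRR, a relative of the insulin receptor, were listed at 0 in every library.

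The binding proteins split in direction, with IGFBP1 higher and IGFBP2, IGFBP3 and IGFBP4 lower in the 3D-primed cells. IGFBP1 (ENSG00000146678, chr7:45888360-45893660, plus strand) was at 1779.7, 1936, 1773 and 1918 CPM in 2D-primed replicates 1 to 4. Its 3D-primed values were 3064, 2517, 3295 and 1932 CPM for replicates 1 to 4. Replicates 1, 2 and 3 of the 3D-primed group exceeded all 2D-primed libraries, and replicate 4 lay within the 2D-primed range. Means of 1852 ± 87.4 and 2702 ± 608 CPM gave a log2 fold change of 0.55 (SE 0.137, with an edgeR adjusted p of 0.0052). The estimate was 0.68 (adjusted p = 8.2e-05) without 3D-primed replicate 4 and 0.43 (adjusted p = 0.013) without 3D-primed replicate 3.

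IGFBP3 (ENSG00000146674, chr7:45912245-45921874, minus strand), which carries most circulating IGF in a complex with the protein of IGFALS, had the largest change of the 10 genes and, in the 3D-primed group, the widest spread. It was at 191, 235, 328 and 279.6 CPM in the 2D-primed and at 61.7, 70.4, 111 and 29.6 CPM in the 3D-primed replicates 1 to 4. The spread within the 3D-primed group was 3.74-fold from replicate 4 to replicate 3, yet the highest of them stayed below the lowest 2D-primed library. The means were 258 ± 59.1 and 68.1 ± 33.4 CPM, a log2 fold change of -1.92 with a 95% interval from -2.64 to -1.21 (edgeR, with an adjusted p of 4.0e-04). Leaving out each library in turn moved it from -2.27 to -1.67.

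IGFBP1 and IGFBP3 are neighbours on chromosome 7, 18.6 kb apart and pointing toward each other, and they moved in opposite directions. The ratio of IGFBP1 to IGFBP3 was 9.33, 8.24, 5.40 and 6.86 in the 2D-primed and 49.6, 35.7, 29.8 and 65.2 in the 3D-primed replicates 1 to 4. Every 3D-primed library was at least 29.8, and the highest 2D-primed library was at 9.33. On the log2 scale the ratio rose by 2.56, or 5.90-fold (exact two-sided permutation test, p = 0.029, 0.036 adjusted over 5 ratios). That p-value follows from the ranges of IGFBP1 and IGFBP3 themselves and adds no support to them.

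IGFBP4 (ENSG00000141753, chr17:40443450-40457725, plus strand), an inhibitor of IGF action until it is cleaved by the protease of PAPPA, fell in the 3D-primed cells. It was at 43.3, 51.2, 45.6 and 43.0 CPM in the 2D-primed and at 20.1, 18.3, 15.4 and 16.8 CPM in the 3D-primed replicates 1 to 4. Every 3D-primed value was lower than any 2D-primed value. Its log2 fold change was -1.38, with an SE of 0.0857 (edgeR, with an adjusted p of 4.4e-07).

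IGFBP2 (ENSG00000115457, chr2:216632828-216664436, plus strand), a binding protein abundant in fetal plasma, was at 31.6, 34.6, 37.7 and 31.3 CPM in the 2D-primed and at 22.0, 22.6, 26.4 and 16.1 CPM in the 3D-primed replicates 1 to 4. The groups did not overlap, and 3D-primed replicate 4 was again the lowest. The log2 fold change was -0.63 (SE 0.127, with an edgeR adjusted p of 0.0014). IGFBP1 over IGFBP2 went from 55.2 ± 5.92 to 124 ± 11.5, a rise of 1.17 on the log2 scale (exact two-sided permutation test, p = 0.029, 0.036 adjusted over 5 ratios). Here too the p-value follows from the ranges of the single genes. IGFBP5, which lies 7.7 kb from IGFBP2 and points toward it, had at most 2 counts in a library.

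**Figure D3:**
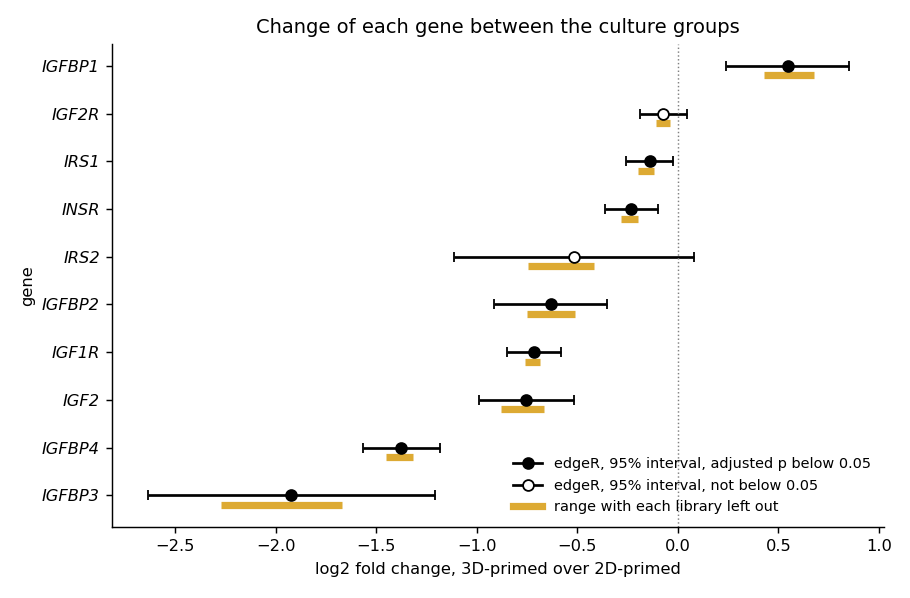
Log2 fold change of each gene, 3D-primed over 2D-primed (horizontal axis), with the 95% interval of edgeR's quasi-likelihood fit as black bars, filled circles for an adjusted p below 0.05, and the range with each library left out in turn as yellow bars. IGFBP3 (-1.92) and IGFBP4 (-1.38) lie farthest below 0, IGFBP1 (0.55) lies above it, and the intervals of IGF2R and IRS2 include 0.

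Levels of different genes were compared per length, as CPM per kb of the canonical transcript. On this scale IGF2 stood at 3412 ± 227 in the 2D-primed and 2023 ± 351 in the 3D-primed cells, and IGFBP1 at 1223 ± 57.7 and 1785 ± 402 CPM per kb. The next was IGFBP3 at 98.9 ± 22.6 in 2D-primed cells, which reached 26.1 ± 12.8 CPM per kb in the 3D-primed cells and there no longer stood apart from IGF2R at 28.5 ± 1.62. IGF1R at 18.7 ± 1.27 exceeded INSR at 14.8 ± 0.846 CPM per kb in 2D-primed cells. In the 3D-primed cells the order was turned, at 11.4 ± 0.700 for IGF1R and 12.6 ± 0.886 for INSR. There INSR was above IGF1R within every library, although the ranges of these genes across libraries overlapped. With the median length of the coding transcripts, IGF1R stayed above INSR in both groups, at 34.5 and 15.6 in the 2D-primed and 21.0 and 13.3 CPM per kb in the 3D-primed cells. IRS2 was the lowest in both groups, at 0.187 ± 0.0459 and 0.130 ± 0.0386 CPM per kb, below IRS1 at 8.43 ± 0.258 and 7.64 ± 0.531.

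IGFBP1 made up most of the binding protein transcripts, and its share grew. Of the summed CPM per kb of the 4 binding proteins it was 89.5 ± 1.71% in the 2D-primed and 97.3 ± 0.395% in the 3D-primed cells. The share of IGFBP3 went from 7.23 ± 1.62% to 1.37 ± 0.453%, that of IGFBP2 from 1.75 ± 0.173% to 0.846 ± 0.0753%, and that of IGFBP4 from 1.52 ± 0.109% to 0.455 ± 0.113%. IGF2 per length was 2.39 to 2.55 times the summed level of the 4 binding proteins in 2D-primed libraries and 0.955 to 1.26 times in the 3D-primed libraries. The size of this ratio depends on the IGF2 transcript length used, and with the median coding length its means were 8.10 and 3.79. These shares and sums are given as a description, without a test.

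**Figure D4:**
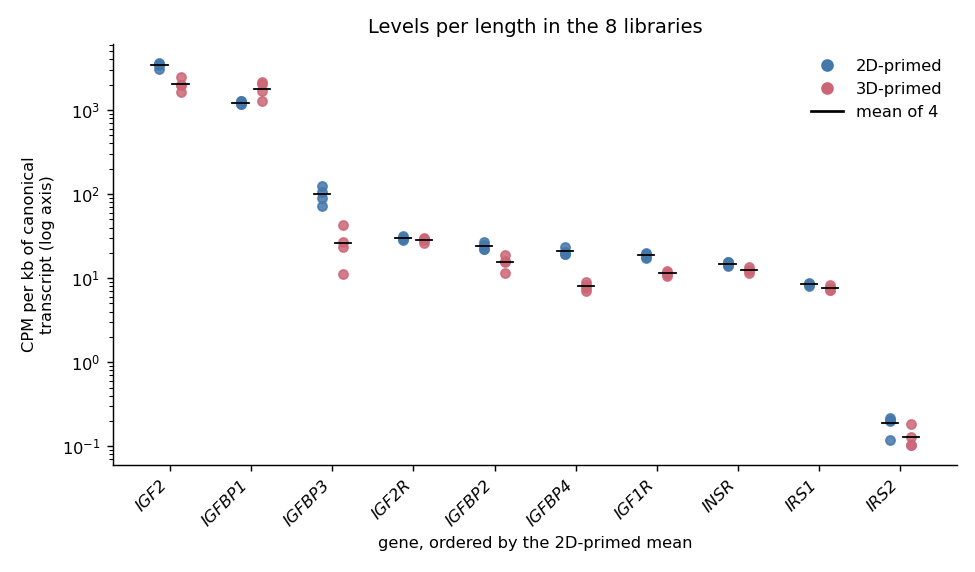
CPM per kb of canonical transcript (vertical axis, logarithmic) of the 10 genes in each library, with 2D-primed and 3D-primed libraries in separate colours and the mean of 4 as a black line. IGF2 and IGFBP1 lie above 1000 CPM per kb in every library, IRS2 lies below 1, and IGFBP3 moves from 98.9 down to 26.1.

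The replicates within each group were ordered alike in many of the 10 genes. 2D-primed replicate 3 was the highest of its group in 6 and replicate 2 in 4, against 28.8% and 25.1% of all genes tested. 2D-primed replicate 4 was the lowest in 5 and replicate 1 in 4, against 21.9% and 31.0% of all genes tested. 3D-primed replicate 3 was the highest of its group in 9 of the 10, all but IGFBP4, whereas across all genes tested it was the highest in 28.4%. 3D-primed replicate 4 was the lowest for IGF2, IRS2, IGFBP1, IGFBP2 and IGFBP3, and 3D-primed replicate 1 was the lowest for IGF1R, IGF2R, INSR and IRS1. These libraries were the lowest of their group in 23.3% and 26.7% of all genes. Mitochondrially encoded genes took 2.52% of counts in 3D-primed replicate 1, 2.67% in replicate 3 and 2.98% in replicate 4, and their part in this order was not tested.

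The spread within a group differed between the genes. In the 3D-primed group the SD as a percentage of the mean was 17.3% for IGF2, 22.5% for IGFBP1, 19.6% for IGFBP2, 49.0% for IGFBP3 and 11.4% for IGFBP4, where the median of the 8991 genes with a mean of at least 10 CPM was 5.52%. In 2D-primed libraries the same genes had 6.65%, 4.72%, 8.86%, 22.9% and 8.35%, against a median of 4.88%. For the adaptors it went from 3.07% (2D-primed) to 6.95% (3D-primed) for IRS1 and from 24.6% to 29.7% for IRS2. IRS2 had 19 to 44 counts and lay below the 10 CPM of the genes behind these medians. The part of counting noise in its spread was not tested. For the receptors IGF1R, IGF2R and INSR it was between 5.19% and 7.05% in both groups.

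Of 18 further genes of the IGF axis, 10 had enough counts to be tested, and 7 of them were called, all lower in the 3D-primed cells, where 31.6% of all genes tested were called in that direction. Their median log2 fold change was -0.49. IGFBP6, a binding protein that prefers IGF2, was at 7.61 to 8.95 CPM in the 2D-primed and at 3.01 to 4.34 CPM in the 3D-primed libraries, a log2 fold change of -1.14 (edgeR, with an adjusted p of 2.2e-05). IGFBP7, a relative that binds IGFs weakly, had only 2 to 22 counts and a log2 fold change of -2.05 (edgeR, with an adjusted p of 0.0032). IGFBP2, IGFBP3, IGFBP4 and IGFBP6 were thus the binding proteins called lower, beside the relative IGFBP7. IGFBP1 was the only binding protein called higher.

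PAPPA, the protease that cleaves IGFBP4, and its inhibitors STC1 and STC2 were all lower in the 3D-primed cells. PAPPA was at 1.83 to 3.34 CPM in the 2D-primed and 0.397 to 1.22 CPM in the 3D-primed libraries (-1.58 on the log2 scale with an edgeR adjusted p of 0.0019). STC2, a secreted glycoprotein, was at 181 to 253 CPM in the 2D-primed and 134 to 176 CPM in the 3D-primed libraries (-0.57 on the log2 scale with an edgeR adjusted p of 8.3e-04). STC1 had 8 to 30 counts and a log2 fold change of -1.22 (edgeR, with an adjusted p of 0.0032). PAPPA had 10 to 82 counts. In all 3 genes the groups did not overlap, against 29.5% of all genes tested in that direction and 59.8% in either. The proteases of PAPPA2 and HTRA1 had at most 1 and 6 counts.

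The 3 mRNA-binding proteins named for IGF2 differed in their response. IGF2BP2 was at 208 to 219 CPM in the 2D-primed and at 157 to 167 CPM in the 3D-primed libraries (-0.42 on the log2 scale with an edgeR adjusted p of 4.7e-06). IGF2BP3 changed by -0.13 on the log2 scale (edgeR, with an adjusted p of 0.019). IGF2BP1 was at 278 to 293 CPM in the 2D-primed and 274 to 287 CPM in the 3D-primed libraries (-0.04 on the log2 scale, SE 0.0350, with an edgeR adjusted p of 0.33), and its direction turned with upper-quartile scaling. IGFALS (0.46 on the log2 scale with an edgeR adjusted p of 0.070) and IGFBPL1 (0.51, edgeR adjusted p = 0.15) had at most 50 and 14 counts and were not called.

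Downstream of the receptors the calls went in both directions. Of 21 genes of receptor-proximal signalling, 8 were up in the 3D-primed and 9 in 2D-primed cells, against 32.4% and 31.6% of all genes tested, and the median log2 fold change was 0.015. PTPRF, a receptor phosphatase that acts on the insulin receptor, fell from 709 ± 36.6 to 428 ± 30.0 CPM (-0.73 on the log2 scale with an edgeR adjusted p of 2.0e-06). CBL, a ubiquitin ligase of activated receptors, fell by 0.92 on the log2 scale (edgeR, with an adjusted p of 1.4e-06), and DOK4, an adaptor related to the IRS family, by 0.47 (edgeR, with an adjusted p of 1.7e-06). PIK3R2, a regulatory subunit of phosphoinositide 3-kinase, rose from 94.3 ± 4.64 to 143 ± 3.56 CPM (0.60 on the log2 scale with an edgeR adjusted p of 1.1e-06).

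Of 25 genes of the AKT, TSC and mTOR branch, 10 were called in each direction, again against 32.4% and 31.6% of all genes tested, and the median log2 fold change was -0.010. TRIB3, a pseudokinase that binds AKT and a target of ATF4, rose most, from 97.4 ± 3.99 to 262 ± 15.2 CPM (1.43 on the log2 scale with an edgeR adjusted p of 2.1e-08). EIF4EBP1, a repressor of translation that mTOR inactivates, rose by 0.75 (edgeR, with an adjusted p of 3.2e-07), and AKT1S1, a subunit that inhibits mTOR complex 1, also by 0.75 (edgeR, with an adjusted p of 1.0e-06), on the log2 scale. PHLPP1, a phosphatase of AKT, fell by 0.58 (edgeR, with an adjusted p of 5.0e-07).

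The genes that FOXO factors activate were called about as often as all genes. Of the 17 tested on that list, which includes FOXO genes themselves and also IGFBP1, IRS2 and INSR, 4 were up in the 3D-primed and 7 in 2D-primed cells, or 64.7% in either direction against 63.9% of all genes tested, with a median log2 fold change of -0.23. FOXO1, the factor that insulin restrains in liver, was at 39.8 to 49.8 CPM in the 2D-primed and at 35.0 to 37.8 CPM in the 3D-primed libraries (-0.32 on the log2 scale with an edgeR adjusted p of 0.0013). PCK1, the rate-setting enzyme of gluconeogenesis, fell from 238 ± 24.4 to 135 ± 26.4 CPM (-0.81 on the log2 scale with an edgeR adjusted p of 2.8e-04). G6PC1, the last enzyme of the same pathway, was at 109 ± 5.80 and 124 ± 31.1 CPM (edgeR, with an adjusted p of 0.27), and PPARGC1A, a coactivator, was at 35.4 ± 0.931 and 38.3 ± 2.97 CPM (edgeR, with an adjusted p of 0.10). IGFBP1, the classical insulin-repressed gene, thus rose while PCK1 fell, and in the 3D-primed libraries replicate 3 was the highest and replicate 4 the lowest for IGFBP1, PCK1 and G6PC1 alike.

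The 4 genes of the FOXO list with the smallest p moved in both directions. KLF15, a factor of amino acid and glucose metabolism, rose from 4.96 ± 0.775 to 14.8 ± 1.16 CPM (1.58 on the log2 scale with an edgeR adjusted p of 7.9e-07). CITED2, a coregulator, fell by 1.26 (edgeR, with an adjusted p of 5.6e-08), BCL6, a repressor, by 0.56 (edgeR, with an adjusted p of 2.2e-05) and TXNIP, an inhibitor of glucose uptake that glucose itself induces, by 1.89 (edgeR, with an adjusted p of 6.7e-06), all on the log2 scale.

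Of the 7 genes tested from a list that insulin induces in liver, 5 were higher and 2 lower in the 3D-primed cells, against 32.4% and 31.6% of all genes tested, with a median log2 fold change of 1.07. SREBF1, the lipogenic transcription factor, rose from 48.5 ± 2.02 to 85.7 ± 4.21 CPM (0.82 on the log2 scale with an edgeR adjusted p of 2.7e-07). The lipogenic enzyme genes FASN and ACACA rose by 1.07 (edgeR, with an adjusted p of 1.2e-06) and 1.09 (edgeR, with an adjusted p of 9.8e-07) on the log2 scale. BHLHE40, a repressor that serum and hypoxia also induce, went the other way, from 603 ± 62.5 to 102 ± 29.2 CPM (-2.56 on the log2 scale with an edgeR adjusted p of 9.4e-07).

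**Figure D5:**
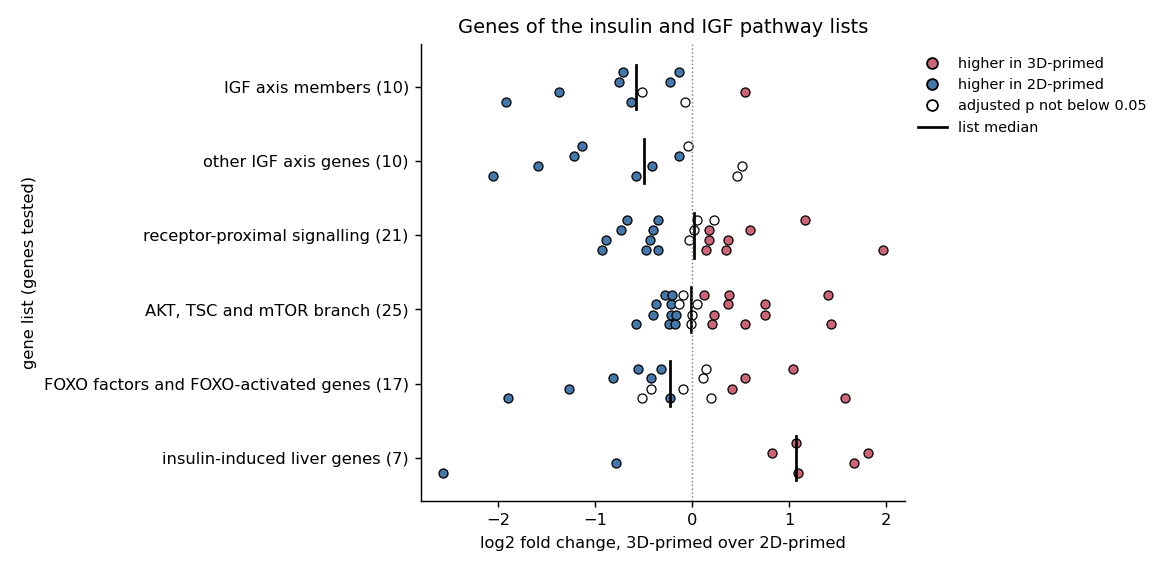
Log2 fold change, 3D-primed over 2D-primed (horizontal axis), of each tested gene of the 6 gene lists (rows, number tested in brackets), coloured by the direction called with edgeR and open where the adjusted p was not below 0.05, with a black line at the list median. The 10 IGF axis genes have their median at -0.57 and the further IGF axis genes at -0.49, the signalling lists lie on both sides of 0, and the insulin-induced genes have their median at 1.07.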

How the data were processed

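Of HepG2 cells, 8 RNA libraries, 4 2D-primed and 4 3D-primed, were sequenced in read pairs from directional poly(A) libraries. For each library the authors deposited estimated counts per gene, whole numbers made with Salmon on the Ensembl cDNA of GRCh38 and collapsed to genes with tximport and not scaled to depth. The tximport setting is not given in the sources used here, and whether counts carry a length correction was not tested. Gene names, positions and transcript lengths were taken from GENCODE on GRCh38 by identifier, which matched 34977 of 38032. Genes reaching 10 counts in 2 or more libraries were tested with glmQLFit and glmQLFTest of edgeR 4.0.16 in R 4.3.3 after TMM scaling. The standard error is the size of the log2 fold change divided by the square root of F. Ratios of genes were tested with exact permutation tests in scipy 1.17.1. The intervals of edgeR cover the spread between these 8 samples. The pipeline was also run on simulated counts in which few genes were changed. That run does not cover data in which most genes are called, as they were here.

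The alternatives were DESeq2 1.42.0, limma-voom (limma 3.58.1), other scaling and filters, a replicate block, each library left out, IGF2 summed with INS-IGF2, and other transcript lengths. The 10 genes and all gene lists were chosen with earlier results of these data known, and the named genes are all of the 10, all further IGF axis genes, and, of each pathway list, the 4 genes with the smallest p plus FOXO1, PCK1, G6PC1 and PPARGC1A. Other experiments of the study are not analysed here. Libraries of a group differed by more than counting noise (chi-square per degree of freedom 6.15 to 16.9).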

Additional observations from a re-analysis of the deposited data

Results flagged for a closer look

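Of 90 groups of 4 values of the named genes and ratios, 5 held a library farther from the rest than Dixon's test allows at 95%, and chance flags about 1 in 20 groups. IGFBP6 stood at 8.95 CPM in 2D-primed replicate 3, with the others at 7.61 to 7.72 CPM. IGFBP7 stood at 0.354 CPM in 3D-primed replicate 2, with the others at 0.0794 to 0.113 CPM, which are a few counts each. TRIB3 was at 103 CPM in 2D-primed replicate 2 against 94.6 to 96.1 CPM in the others, and FOXO1 was at 37.8 CPM in 3D-primed replicate 3 against 35.0 to 35.3 CPM. KLF15 was at 6.12 CPM in 2D-primed replicate 4, where the other libraries had 4.50 to 4.67 CPM. In IGFBP6, IGFBP7, TRIB3, FOXO1 and KLF15 alike, the groups stayed apart with that library included, as they did in 59.8% of all genes tested. None of the 10 genes that the report follows had such a library.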

How the results depend on the processing

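Of the log2 fold changes of the 10 genes under an alternative, 160 kept their direction and their side of the threshold, 9 of IRS1 were no longer past it and 2 of IRS2 passed it. The log2 fold change of IRS1 was no longer past the threshold with library totals only (-0.11, adjusted p = 0.069), upper-quartile factors (-0.090, adjusted p = 0.15) or no filter on low counts (-0.14, adjusted p = 0.059), and ran from -0.20 to -0.12 with each library left out. That of IRS2 ran from -0.74 to -0.42 with each library left out. Between 6 and 8 of the 10 genes were called lower and 1 was called higher in 3D-primed cells under every alternative. The number of genes called ran from 8357 to 9070. Among the further IGF axis genes, 1 rather than 0 was called higher with upper-quartile factors, with 10 counts in all 8 libraries and without 3D-primed replicate 3. IGF2BP1 turned to 0.0096 with upper-quartile factors, under which the median log2 fold change of all genes tested was 0.064 in place of 0.013. The cause was not tested.

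Across all genes the replicate numbers showed no sign of pairing, since the deviations of same-numbered libraries correlated at -0.044 to 0.036. With the replicate block 8490 genes were called in place of 8916. Among the 10 genes, replicate 3 was the highest of its group in 6 for the 2D-primed and in 9 for the 3D-primed libraries. The block took the SE of IGFBP2 from 0.127 to 0.081 and that of INSR from 0.0590 to 0.0407. That of IGFBP1 was 0.137 without and 0.138 with the block. Whether the numbers pair the libraries for these genes was not tested. For the ratios, a replicate block of 4 pairs cannot give a p below 0.125, which each of INSR over IGF1R (0.48), IGF2R over IGF1R (0.64), IGFBP1 over IGFBP2 (1.17) and IGFBP1 over IGFBP3 (2.56) gave. With 1 library left out the exact test cannot pass 0.05, and these log2 differences ran from 0.47 to 0.50, 0.62 to 0.66, 1.09 to 1.22 and 2.36 to 2.74. The share of IGFBP1 among the binding proteins was 93.0% and 98.4% with the union of exons as length, and 84.6% and 95.9% with the median coding transcript, in the 2D-primed and 3D-primed cells. IRS2 had 19 to 44 counts, the fewest of the 10 genes, and the part of depth in its interval was not tested.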
